A study of Homo sapiens with 4 samples.

Results

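Chemokine-high cells were taken from the library of HCC1143 cells that had been kept in 1 nM paclitaxel for 72 h. Of the 526 cell barcodes of that library, 485 had at least 20000 unique molecular identifiers (UMIs, each 1 captured RNA molecule). These 485 cells were ranked by the share of their UMIs that came from CXCL8 and CXCL1 together. The top 20%, 97 cells, are called chemokine-high, and the lowest 40%, 194 cells, chemokine-low. The 97 cells are part of 3194 barcodes in the whole series. The ranking itself used CXCL8 and CXCL1, so the members were selected on their measured values, and every difference within this library is a description, with no test.

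HCC1143 is an established human cell line from a triple-negative breast carcinoma, a tumour type without oestrogen receptor, progesterone receptor and HER2 amplification. Paclitaxel is a taxane that binds microtubules and stabilises them. Each of the 4 groups was 1 10x Chromium library: paclitaxel for 24 h, its solvent DMSO for 24 h, paclitaxel for 72 h and DMSO for 72 h. Every group was the same line, without genetic change, left to attach for 24 h before 1 nM paclitaxel or solvent was added, and no library has a replicate. CPM below means counts per 1000000 UMIs after summing UMIs over a set of cells.

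CXCL8 (interleukin-8) and CXCL1 are secreted chemokines that draw neutrophils through CXC chemokine receptors. Their genes are switched on quickly in epithelial cells by NF-kB and AP-1 transcription factors downstream of receptors for TNF and interleukin-1, and the resulting RNAs are short-lived because decay factors act on AU-rich elements. Type I interferon works through a separate route, in which JAK kinases and STAT factors switch on antiviral genes such as IFI6 and ISG15. Both routes can be started by damage or nucleic acid sensing in tumour cells. Whether one cell runs both at once can be read only from single cells.

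The chemokine-high cells were a range of a continuous distribution, not a separate type. Their share of CXCL8 and CXCL1 lay between 5.72 and 434 per 10000 UMIs, with a median of 10.6. The chemokine-low cells lay between 0 and 1.12, with a median of 0.522, and 14 of them had no UMI of either gene. The 3 cells just inside the upper limit had 5.7208, 5.76857 and 5.79366 per 10000, and the 3 just outside had 5.72062, 5.67403 and 5.65434. In all, 26 cells lay within 10% of that limit.

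A few cells carried much of the output. The cell with the highest share held 858 CXCL8 and 819 CXCL1 UMIs among 38642 UMIs in total. The next 4 cells had 140, 63.8, 51.1 and 48.8 per 10000. These 5 cells together held 34.5% of all CXCL8 UMIs of the 485 cells. The 97 chemokine-high cells held 74.0% of the UMIs of both genes, 79.9% of those of CXCL8 and 70.5% of those of CXCL1.

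The limit of the chemokine-high cells was reached less often in the other libraries. At or above it were 56 of 751 cells with paclitaxel at 24 h (7.46%, exact 95% interval 5.68 to 9.57), 55 of 1081 cells with DMSO at 24 h (5.09%) and 12 of 769 cells with DMSO at 72 h (1.56%). Binomial and count intervals here are exact (Clopper-Pearson) and cover counting error only. The chemokine-low cells of the paclitaxel 72 h library had 15.8 CPM of CXCL8 and 41.7 CPM of CXCL1. Over all DMSO 72 h cells, which were not selected on these genes, the values were 15.9 and 63.8 CPM.

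**Figure D1:**
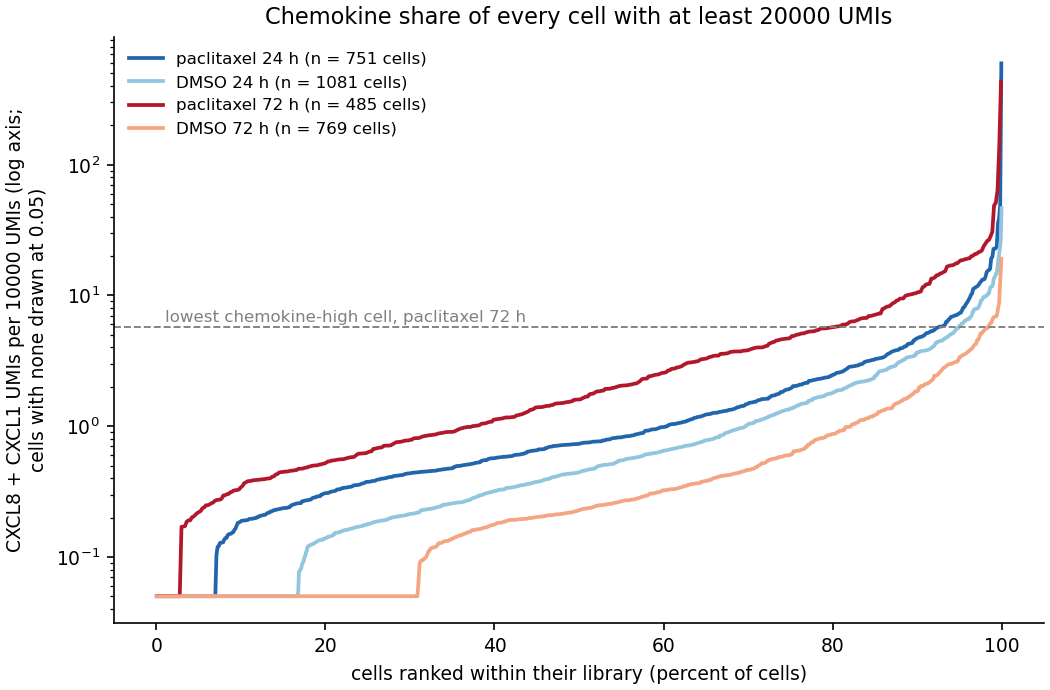
Share of CXCL8 and CXCL1 UMIs per 10000 UMIs (log axis) of every cell with at least 20000 UMIs, ranked within its library (x axis, percent of cells). Each line is 1 library, and the dashed line is the lowest chemokine-high cell of the paclitaxel 72 h library, at 5.72; 20% of that library's cells lie at or above it, against 1.56% of the DMSO 72 h cells.

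The chemokine-high cells were richer in RNA. Their median was 77872 UMIs and 8051 detected genes, against 50190.5 UMIs and 6617 genes in chemokine-low cells. Over 100000 UMIs were found in 33 of 97 chemokine-high cells (34.0%) and in 22 of 194 chemokine-low cells (11.3%). Across the 485 cells the chemokine share and the UMI total had a Spearman correlation of 0.286, and both share the same UMI total. The share of mitochondrially encoded UMIs was close in both sets (median 6.85% in chemokine-high and 6.57% in chemokine-low cells), and ribosomal protein genes took 26.4% and 28.4%. Scrublet marked 4 of the 485 cells as doublets, 3 of them chemokine-high. No barcode of the paclitaxel 72 h library occurred in another library, whereas the DMSO 24 h library shared 4 barcodes with paclitaxel 24 h and 3 with DMSO 72 h. The part that RNA content has in the differences below was not tested apart from the alternatives that thin or limit the cells' UMIs.

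Both sets were epithelial cells. All 6 epithelial markers were measured, for example KRT18 at 1078 CPM in chemokine-high and 930 CPM in chemokine-low cells and EPCAM at 402 and 353 CPM. Of 22 markers of immune cells, fibroblasts and endothelium, 2 reached a mean of 10 CPM, CD68 with 18.8 and 21.8 CPM and COL1A1 with 14.4 and 15.2 CPM. Summed over its list, the highest chemokine-high cell had 1.91 immune marker UMIs, 1.23 fibroblast marker UMIs and 0.854 endothelial marker UMIs per 10000, against 8.26, 1.75 and 0.981 in the highest chemokine-low cell. CD3D, CD3E, MS4A1, NKG7, DCN, LUM and PECAM1 were among the markers with no line in the table.

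The other neutrophil-attracting CXC chemokines went with the pair used for ranking. CXCL3, CXCL5 and CXCL2 lie beside CXCL8 and CXCL1 on chromosome 4 and signal through the same receptors. CXCL3 was at 34.8 CPM in chemokine-high and 3.77 CPM in chemokine-low cells, a log2 ratio of 3.21 (95% interval 2.74 to 3.70). CXCL5 was at 35.1 and 5.34 CPM (2.72), and CXCL2 at 31.2 and 5.26 CPM (2.57). No single cell made these ratios: without the cell with the highest share in each set they were 3.15, 2.68 and 2.42. Per cell the groups overlapped, since the median chemokine-high cell had only 0.104, 0.134 and 0.0483 UMIs per 10000 of CXCL3, CXCL5 and CXCL2, and the highest chemokine-low cells had 0.712, 2.02 and 1.17. CXCL1, CXCL2 and CXCL3 are close paralogs, so how their reads were shared out is uncertain.

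CXCL8 and CXCL1 did not always peak in the same cells. CXCL8 was at 661 CPM in chemokine-high cells against 15.8 CPM in chemokine-low cells, and CXCL1 at 980 against 41.7 CPM. Their UMI shares had a Spearman correlation of 0.531 across 485 cells. Of the 97 cells highest in CXCL8 alone, 52 were also among the 97 highest in CXCL1 alone. Within the chemokine-high cells CXCL8 made up between 0 and 99.4% of the UMIs of the pair, with a median of 33.3%, and 27 of 97 cells had more CXCL8 than CXCL1. When cells were ranked by CXCL8 alone, CXCL1 still differed by a log2 ratio of 2.49 (773 against 137 CPM), and when ranked by CXCL1 alone CXCL8 differed by 3.77 (486 against 35.7 CPM).

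On GRCh38 in GENCODE release 29, CXCL8 lies at chr4:73740506-73743716 and CXCL1 at chr4:73869393-73871242 on the plus strand, and CXCL5 (chr4:73995642-73998779), CXCL3 (chr4:74036589-74038807) and CXCL2 (chr4:74097035-74099293) on the minus strand. The 5 genes span 359 kb. AREG, at chr4:74445134-74455009, begins 346 kb beyond CXCL2. The neighbours between and around them did not all follow. MTHFD2L, a folate enzyme gene directly beyond CXCL2, was at 36.9 CPM in chemokine-high and 34.0 CPM in chemokine-low cells (log2 ratio 0.12). The EGFR ligand gene EREG next to AREG was at 0.704 and 0.876 CPM. EPGN, RASSF6, PARM1 and BTC, also near these genes, had positive log2 ratios of 0.84, 0.62, 0.73 and 0.42. Summed counts under 3 UMIs were raised to 3 for the ratios. This lowered the ratio of EPGN, at 0.470 CPM in chemokine-high and 0.0876 CPM in chemokine-low cells. EPGN, RASSF6, PARM1, BTC and EREG were all low, the most abundant being BTC at 6.11 and 4.55 CPM.

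The promoters of 3 of the chemokine genes are shown because they carry the motifs named in the background, and those of AREG and ISG15 because these genes stand for the other patterns below. Each sequence is the 250 bases before the RefSeq start site on GRCh38.p14, written 5′ to 3′ on the strand of the gene. The windows are chr4:73740319-73740568 (plus), chr4:73869143-73869392 (plus), chr4:73998678-73998927 (minus), chr4:74444886-74445135 (plus) and chr1:1013247-1013496 (plus). Capitals mark matches to the kB-type motif GGNNTTTCC, the AP-1 motif TGANTCA, the cyclic AMP response element (CRE) TGACGTCA and the ISRE-type motif (GAAA, any 2 bases, GAAA), each searched on both strands.
CXCL8: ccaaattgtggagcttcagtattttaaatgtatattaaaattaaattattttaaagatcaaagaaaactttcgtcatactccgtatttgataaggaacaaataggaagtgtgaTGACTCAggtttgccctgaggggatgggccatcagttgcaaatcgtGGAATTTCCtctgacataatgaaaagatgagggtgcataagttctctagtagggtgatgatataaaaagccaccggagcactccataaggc
CXCL1: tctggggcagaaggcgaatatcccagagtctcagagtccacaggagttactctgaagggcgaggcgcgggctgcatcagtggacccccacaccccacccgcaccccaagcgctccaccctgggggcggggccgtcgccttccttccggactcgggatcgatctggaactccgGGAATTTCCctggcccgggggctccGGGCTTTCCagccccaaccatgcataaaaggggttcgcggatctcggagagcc
CXCL5: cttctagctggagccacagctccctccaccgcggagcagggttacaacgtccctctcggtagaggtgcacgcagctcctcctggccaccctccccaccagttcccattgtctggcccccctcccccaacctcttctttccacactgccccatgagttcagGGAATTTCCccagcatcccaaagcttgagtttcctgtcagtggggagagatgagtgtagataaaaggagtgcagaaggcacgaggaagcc
AREG: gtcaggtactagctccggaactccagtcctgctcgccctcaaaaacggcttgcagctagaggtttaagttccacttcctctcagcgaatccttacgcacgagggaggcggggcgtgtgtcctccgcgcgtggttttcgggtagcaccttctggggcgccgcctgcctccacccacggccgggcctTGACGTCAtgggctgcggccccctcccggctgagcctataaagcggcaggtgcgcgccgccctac
ISG15: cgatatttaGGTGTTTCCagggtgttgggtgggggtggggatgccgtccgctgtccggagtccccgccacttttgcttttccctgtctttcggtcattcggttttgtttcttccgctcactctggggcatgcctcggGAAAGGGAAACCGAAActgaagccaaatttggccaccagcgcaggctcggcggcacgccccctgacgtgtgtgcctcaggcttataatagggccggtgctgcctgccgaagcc

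The kB-type match GGAATTTCC begins 91 bases before the start of CXCL8, 78 before CXCL1 and CXCL3, 77 before CXCL2 and 90 before CXCL5. CXCL1, CXCL2 and CXCL3 hold a second match, GGGCTTTCC, 53 bases before their start. All 5 neutrophil-attracting chemokine genes of the count table thus have a kB-type match, which 6.26% of 35116 promoters of 300 bases (250 before and 50 after the start) have. Among the 5, the AP-1 motif was matched in CXCL8 (137 bases before the start) and is found in 7.71% of all promoters. AREG has a CRE match 65 bases before its start, as 1.85% of all promoters do, and no kB-type match in this window. ISG15 has overlapping ISRE-type matches 113 and 107 bases before its start (3.57% of all promoters have any) and a kB-type match 241 bases before it. A match describes letters in the window only.

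Beyond CXCL8 and CXCL1, 202 of the 5975 genes averaging 20 CPM or more (3.38%) were at least 1.5-fold higher in chemokine-high than in chemokine-low cells, and 75 (1.26%) at least 1.5-fold lower. The median log2 ratio of the 5975 genes was -0.0002. With ribosomal protein and mitochondrially encoded genes left out of ranking and totals the counts were 235 higher and 157 lower. No test or p-value belongs to these counts, since cells of 1 library are not replicates, and both counts depend on depth (327 and 201 when each cell was thinned to 20000 UMIs).

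AREG, which encodes amphiregulin, a ligand of the EGF receptor, had the highest ratio outside the chemokine family where the mean reached 50 CPM. It was at 169 CPM in chemokine-high and 25.9 CPM in chemokine-low cells, a log2 ratio of 2.70 (2.52 to 2.89). The median chemokine-high cell had 0.411 AREG UMIs per 10000, within a range of 0 to 18.1, and the median chemokine-low cell had 0, within a range of 0 to 3.91. The ranges overlapped, and 78.4% of chemokine-high cells were above the chemokine-low median, against 42.3% of chemokine-low cells. One cell held 26.1% of the AREG UMIs of the chemokine-high set, and without the highest cell of each set the log2 ratio was 2.36. Over 5 equal bins of the ranking, from low to high, AREG was at 24.99, 26.7, 47.5, 39.3 and 169 CPM, so most of its difference lay in the uppermost bin.

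Of the other EGFR ligands, TGFA was at 43.7 CPM in chemokine-high and 27.9 CPM in chemokine-low cells (log2 ratio 0.64). The receptor gene EGFR itself was at 47.8 and 51.3 CPM. SPRY2, a feedback inhibitor of receptor signalling, was at 57.2 and 39.8 CPM, and the phosphatase gene DUSP4 at 11.6 and 15.1 CPM. Of 8 measured members of this list (averaging 10 CPM or more), 2 exceeded 1.5-fold upwards and 0 downwards. Over all 8554 genes at that minimum 3.52% were higher and 1.96% lower, with a median log2 ratio of -0.01. The median of the list was 0.13. These shares over all genes are the background of every list count of this library below.

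Genes of matrix proteases and plasminogen activators were higher in part. Urokinase and tissue plasminogen activator cut plasminogen into plasmin, which digests matrix. Of 9 measured genes 5 were past 1.5-fold upwards, against 3.52% of all genes, and 0 downwards, with a median log2 ratio of 0.59. Only inflammatory cytokines (0.85) and other chemokines (0.82) had larger medians among lists with 5 or more measured members. PLAU (urokinase) was at 86.5 CPM in chemokine-high and 27.1 CPM in chemokine-low cells, a log2 ratio of 1.68 (1.48 to 1.87). Its receptor gene PLAUR was at 404 and 207 CPM (0.97), and PLAT (tissue plasminogen activator) at 16.3 and 6.22 CPM (1.39). Over the 5 bins PLAU was at 27.5, 26.7, 45.2, 63.3 and 86.5 CPM, level in the lowest bins and higher in each bin above them. The metalloproteinase gene MMP7 was at 541 and 388 CPM, and the protease inhibitor gene TIMP2 at 98.9 and 95.9 CPM.

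Some inflammatory cytokine genes were also higher. TNF was at 93.3 CPM in chemokine-high and 33.5 CPM in chemokine-low cells, a log2 ratio of 1.48 (1.30 to 1.66). LIF, an interleukin-6 family cytokine, was at 58.4 and 16.6 CPM (1.82), and IL32 at 50.7 and 22.9 CPM (1.15). TNF had a median of 0.481 and a maximum of 22.4 UMIs per 10000 in chemokine-high cells, against a median of 0.168 and a maximum of 11.01 in chemokine-low cells, so the sets overlapped. Of 6 measured cytokine genes 3 were at least 1.5-fold higher. IL23A, the subunit specific to interleukin-23, was lower at 8.10 against 12.3 CPM (-0.60), and under 1.5-fold in 5 of 13 alternatives.

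Receptors and adapters before NF-kB differed less. Of 15 measured genes 3 were higher and 0 lower, with a median log2 ratio of 0.17. These were MAP3K8, a kinase downstream of TNF and interleukin-1 receptors (128 CPM in chemokine-high and 68.3 CPM in chemokine-low cells, 0.91), the TWEAK receptor gene TNFRSF12A (302 and 168 CPM, 0.85) and TNFRSF21 (103 and 63.0 CPM, 0.71). The adapter gene TRAF2 was at 28.5 and 21.6 CPM (0.40).

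NF-kB subunits and feedback genes did not move as one. Of 18 measured genes 5 were past 1.5-fold upwards, against 3.52% of all genes, and 0 downwards, with a median log2 ratio of 0.27. TNFAIP3 (A20, a ubiquitin-editing inhibitor of NF-kB) was at 34.3 CPM in chemokine-high and 13.6 CPM in chemokine-low cells, a log2 ratio of 1.34 (1.05 to 1.63). NFKBIZ, a nuclear cofactor of NF-kB, was at 28.9 and 13.6 CPM (1.09), NFKB1 at 20.8 and 11.5 CPM (0.86), and the apoptosis inhibitor gene BIRC3 at 201 and 127 CPM (0.67). TNFAIP2 was at 52.6 and 34.3 CPM. Of the other subunits, RELA was at 58.1 and 56.3 CPM, NFKB2 at 21.0 and 20.1 CPM and REL at 51.2 and 54.7 CPM, while RELB was at 75.7 and 55.9 CPM (0.44). NFKBIA, the best known inhibitor made in response to NF-kB, was at 164 and 126 CPM (0.38). TNFAIP3 was at 13.4, 13.7, 20.9, 29.5 and 34.3 CPM over the 5 bins, and NFKBIZ at 11.2, 15.6, 18.6, 25.2 and 28.9 CPM, both highest in the uppermost bin. In cells with 40000 to 80000 UMIs, a limit chosen after seeing the data, the median of the list was 0.50.

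**Figure D2:**
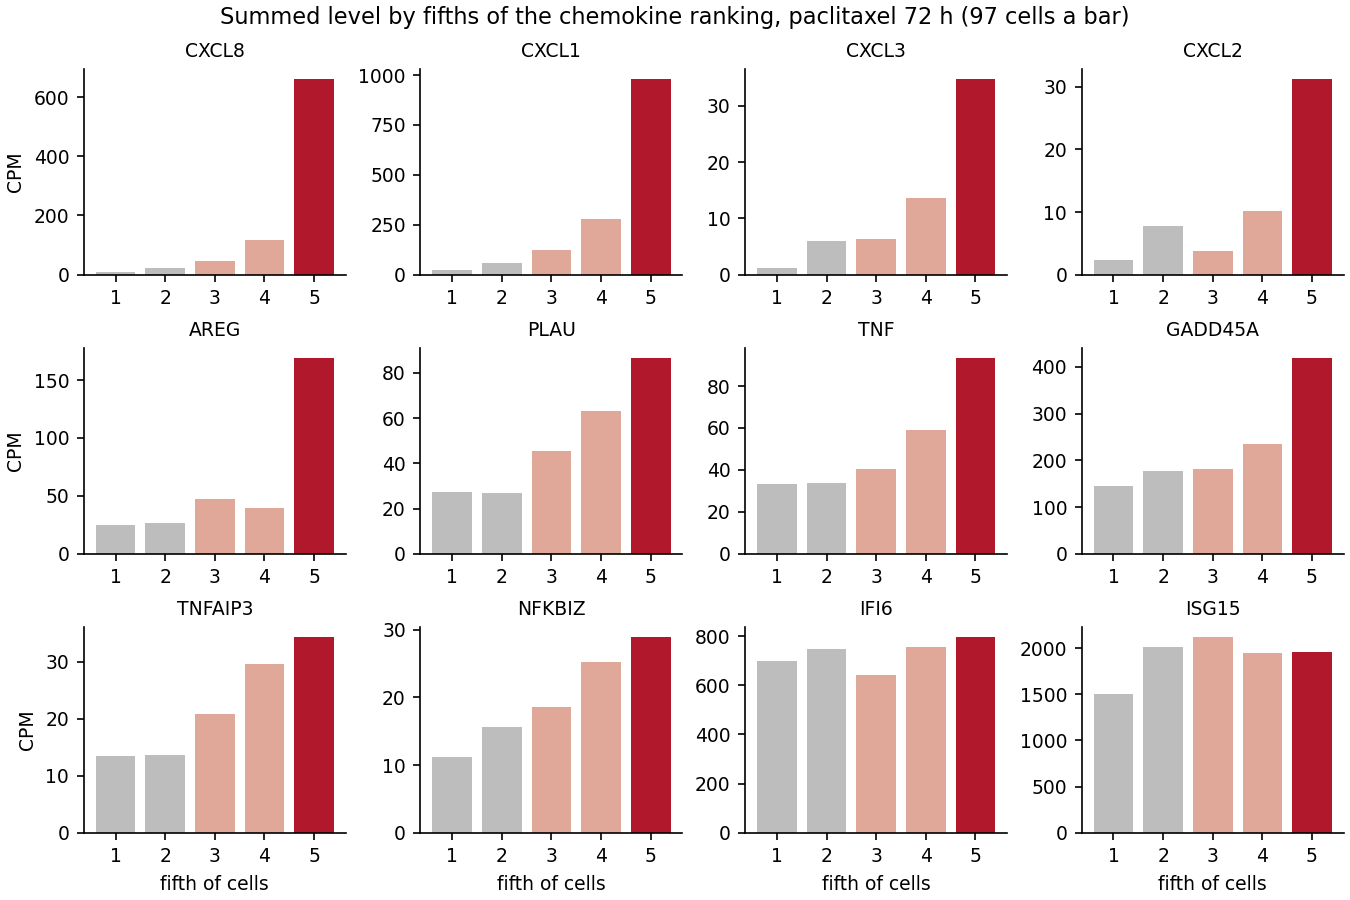
Summed CPM (y axis, from 0) of 12 genes in 5 equal bins of the cells ranked by chemokine share (x axis, low to high), paclitaxel 72 h, 97 cells a bar and no error bars, since each bar is 1 sum. CXCL8 and CXCL1 set the ranking; AREG stands out in the uppermost bin (169 CPM), TNFAIP3 and NFKBIZ are higher in each bin from bin 3 on, and IFI6 stays between 641 and 796 CPM.

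AP-1 and immediate early genes gave 4 of 17 measured genes higher, against 3.52% of all genes, and 0 lower. Their median log2 ratio was 0.37. KLF6 was at 664 CPM in chemokine-high and 361 CPM in chemokine-low cells (0.88), MAFF at 76.3 and 42.5 CPM (0.85) and the AP-1 subunit gene FOSL1 at 81.4 and 51.2 CPM (0.67). EGR1, the fourth, was at 16.3 and 7.36 CPM. JUN was at 164 and 119 CPM (0.46) and FOS at 11.5 and 14.4 CPM (-0.32). Among genes whose products act on mRNA stability, 2 of 7 were higher: ZC3H12A, an endonuclease that cuts inflammatory mRNAs, at 24.3 and 12.9 CPM (0.92), and ZFP36L2 at 267 and 174 CPM (0.62). ZFP36, the best studied decay factor of AU-rich elements, was at 60.5 and 45.2 CPM (0.42).

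GADD45A, a stress-induced gene linked to growth arrest, was at 419 CPM in chemokine-high and 162 CPM in chemokine-low cells, a log2 ratio of 1.37 (1.29 to 1.45). Its median was 1.97 UMIs per 10000 in chemokine-high cells and 0.673 in chemokine-low cells, while the maximum was 30.6 in chemokine-high and 48.2 in chemokine-low cells. Besides GADD45A, the p53 target list held 1 other gene past 1.5-fold, GADD45B (190.4 and 113.7 CPM, 0.74), which was past it in only 5 of 13 alternatives and at -0.32 in cells under 100000 UMIs. CDKN1A was at 136 and 97.1 CPM (0.48), TP53I3 at 17.4 and 23.6 CPM (-0.44), and the median of the 11 measured genes was 0.11. Genes of apoptosis gave 3 of 15 higher, against 3.52% of all genes, on both sides of the process. PMAIP1 (NOXA, which promotes cell death) was at 210 and 98.4 CPM (1.09), and CFLAR, which blocks death receptor signalling, at 158 and 95.6 CPM (0.72). The integrated stress response genes were close to equal, with 0 of 20 higher or lower. ATF3 was at 84.2 and 85.3 CPM, and DDIT3 at 55.9 and 81.2 CPM (-0.54).

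The remaining genes with the highest ratios had varied roles. KLK10, a secreted peptidase, was at 170 CPM in chemokine-high and 66.1 CPM in chemokine-low cells (log2 ratio 1.36), and the tight junction gene CLDN1 at 163 and 63.7 CPM (1.36). KRT23, a type I keratin, was at 154 and 65.5 CPM (1.24), FST (follistatin, which binds activin) at 104 and 46.6 CPM (1.16), PKIB, an inhibitor of protein kinase A, at 131 and 58.7 CPM (1.16), and EDN1 (endothelin-1) at 116 and 55.0 CPM (1.08). RP11-402P6.11 was at 338 and 96.6 CPM (1.81), but 35.8% of its chemokine-low UMIs came from 1 cell. NMU (neuromedin U) and C10orf10 each rested on 1 cell, which held 43.7% and 43.4% of their chemokine-high UMIs. Their log2 ratios of 1.26 and 1.07 were 0.57 and 0.32 without the highest cell of each set.

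Epithelial identity markers of both lineages were higher in part. Of 15 measured basal markers 3 were higher, among them KRT14 at 912 CPM in chemokine-high and 502 CPM in chemokine-low cells (0.86) and KRT6A at 103 and 62.7 CPM (0.72). Of 13 luminal markers 3 were higher, among them the tight junction gene CLDN4 at 377 and 193 CPM (0.96) and the luminal transcription factor gene GATA3 at 31.7 and 15.4 CPM (1.04). Both lists had a median log2 ratio of 0.32. Of 8 genes of squamous differentiation, SPRR2D (24.5 and 8.41 CPM, 1.55), KLK10 and KLK5 were higher. KRT14 was not higher when cells were ranked by CXCL8 alone (-0.029).

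**Figure D3:**
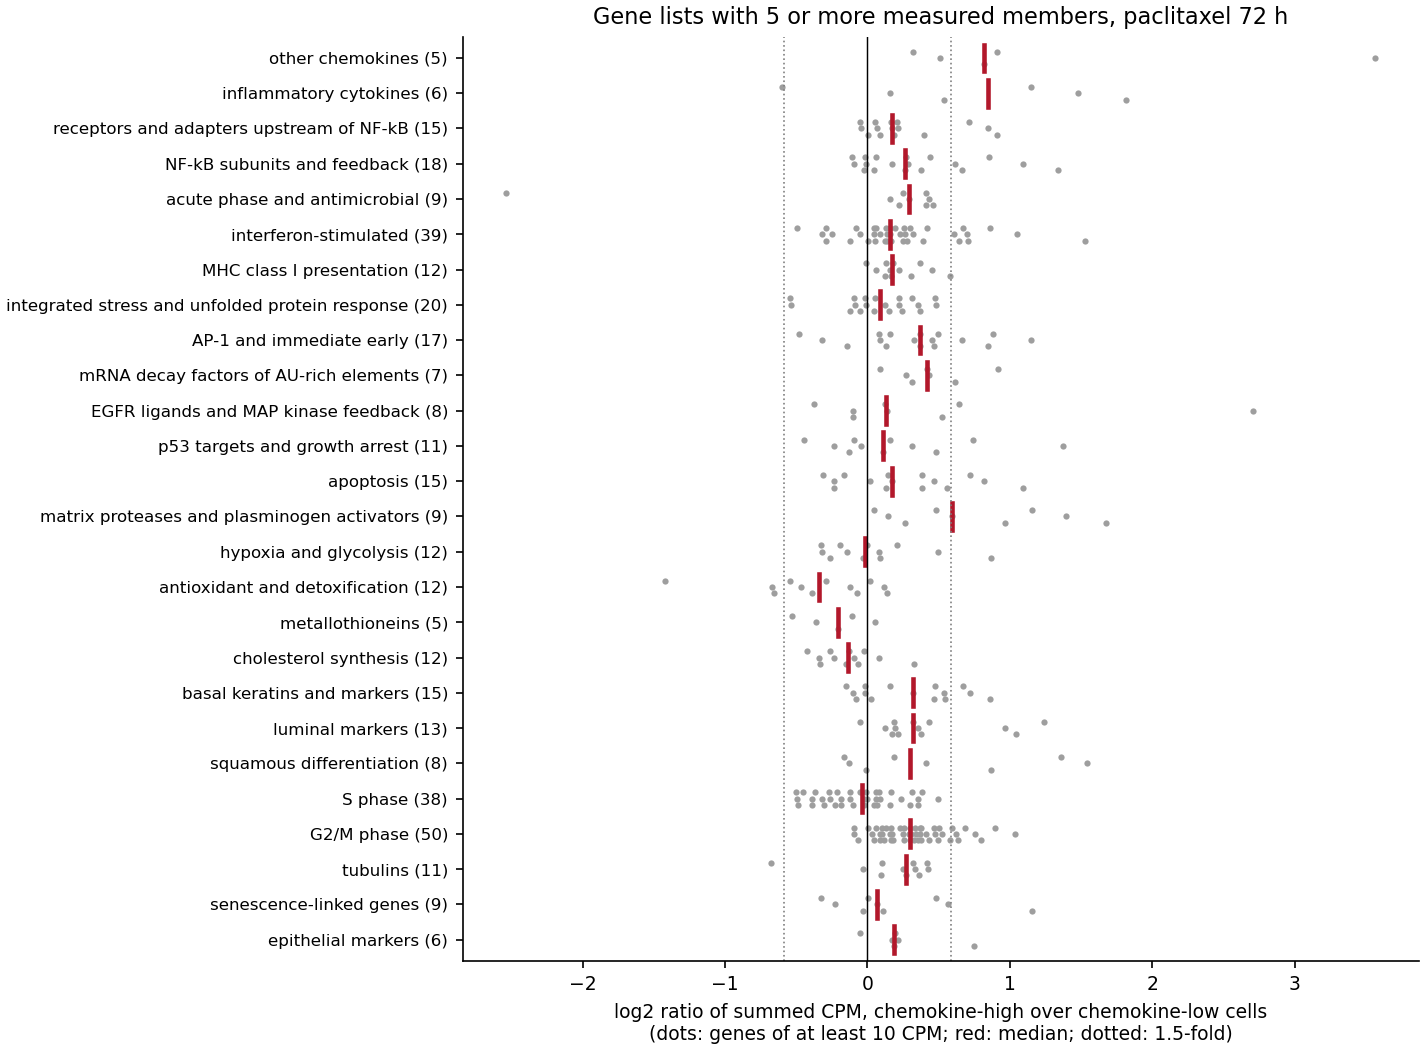
Log2 ratio of summed CPM, chemokine-high over chemokine-low cells of the paclitaxel 72 h library (x axis), for gene lists with 5 or more measured members (rows, number of genes in parentheses). Each dot is 1 gene averaging 10 CPM or more, the red line is the median of the list and the dotted lines mark 1.5-fold; the plasminogen activator list has its median at 0.59, the interferon list at 0.16.

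Genes lower in chemokine-high cells had smaller ratios. LINC01297.1, a long noncoding RNA, was at 22.3 CPM in chemokine-high and 94.2 CPM in chemokine-low cells (-2.08), with 29.8% of its chemokine-low UMIs in 1 cell. GABARAPL1, of the autophagy ATG8 family, was at 30.8 and 70.1 CPM (-1.19), and SNHG19, a host gene of small nucleolar RNAs, at 94.9 and 195 CPM (-1.04). MGP, an inhibitor of calcification, was at 94.5 and 185 CPM (-0.97), yet its median per cell was higher in chemokine-high cells (0.456 against 0.305 per 10000). ID1, an inhibitor of helix-loop-helix factors, was at 233 and 421 CPM (-0.85). Over the bins ID1 was at 261, 559, 267, 229 and 233 CPM, so bin 2 alone stood out. EFHD1, SDC2, IK, SLU7 and ZNF622 lay between -0.82 and -0.68. Among antioxidant genes 3 of 12 were lower, against 1.96% of all genes, and 0 higher (median -0.34). The lower genes included AKR1C3 at 8.92 and 23.9 CPM (-1.42). AKR1C3 was past 1.5-fold in 10 of 13 alternatives and at 0.18 in cells without MKI67 and TOP2A UMIs after thinning. HMOX1 and TXNRD1, at -0.65 and -0.67, fell short of 1.5-fold in 8 and 9 of 13 alternatives.

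Of 5 measured genes of other chemokines 3 were past 1.5-fold upwards and 0 downwards, with a median log2 ratio of 0.82, where 3.52% of all genes were higher. CXCL16, a membrane-bound ligand of CXCR6, was at 128 CPM in chemokine-high and 72.5 CPM in chemokine-low cells (0.82), and the mucosal chemokine gene CCL28 at 78.8 and 41.9 CPM (0.91). CCL5, a chemokine for T cells, was at 37.3 and 3.15 CPM (3.57), but 1 cell held 79.9% of its chemokine-high UMIs. In the top 10% against the lowest 50% of cells its log2 ratio was -2.84. CXCL10 was at 19.6 and 15.7 CPM (0.32). Below a mean of 10 CPM, the monocyte chemokine gene CCL2 was at 9.04 CPM in chemokine-high and 1.49 CPM in chemokine-low cells (2.60), and past 1.5-fold in 13 of 13 alternatives. CXCL11, a ligand of CXCR3, was at 4.58 and 0.701 CPM (2.71), from 39 and 8 UMIs, and past 1.5-fold in 12 of 13. CCL20 was at 4.81 and 14.5 CPM, but 1 chemokine-low cell held 91.5% of its chemokine-low UMIs, and without the highest cell of each set its log2 ratio was 1.62. PI3, an antimicrobial protease inhibitor gene, was at 9.63 and 55.9 CPM (-2.54), with 73.5% in 1 chemokine-low cell and a ratio of -0.74 without the highest cell of each set.

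Most chemokine-high cells were not interferon-high. Interferon-high cells are the 97 of the same 485 cells with the highest summed share of the interferon-stimulated list (48 genes in the table), so 20% of cells carry that name. Of the chemokine-high cells 21 of 97 were interferon-high (21.6%, exact 95% interval 13.9 to 31.2), against 37 of 194 middle cells (19.1%, 13.8 to 25.3) and 39 of 194 chemokine-low cells (20.1%, 14.7 to 26.4). The 3 shares lay within each other's intervals and close to 20%. In the lowest 40% of the interferon ranking were 31 of 97 chemokine-high cells (32.0%) and 93 of 194 chemokine-low cells (47.9%). The median interferon share was 61.9 per 10000 UMIs in chemokine-high cells, within a range of 15.4 to 198, and 50.4 in chemokine-low cells, within a range of 3.74 to 290. Across 485 cells the chemokine and interferon shares, which have the UMI total in common, had a Spearman correlation of 0.137, and 0.040 within the 97 chemokine-high cells. The cell with the highest chemokine share lay below the lowest interferon-high cell.

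**Figure D4:**
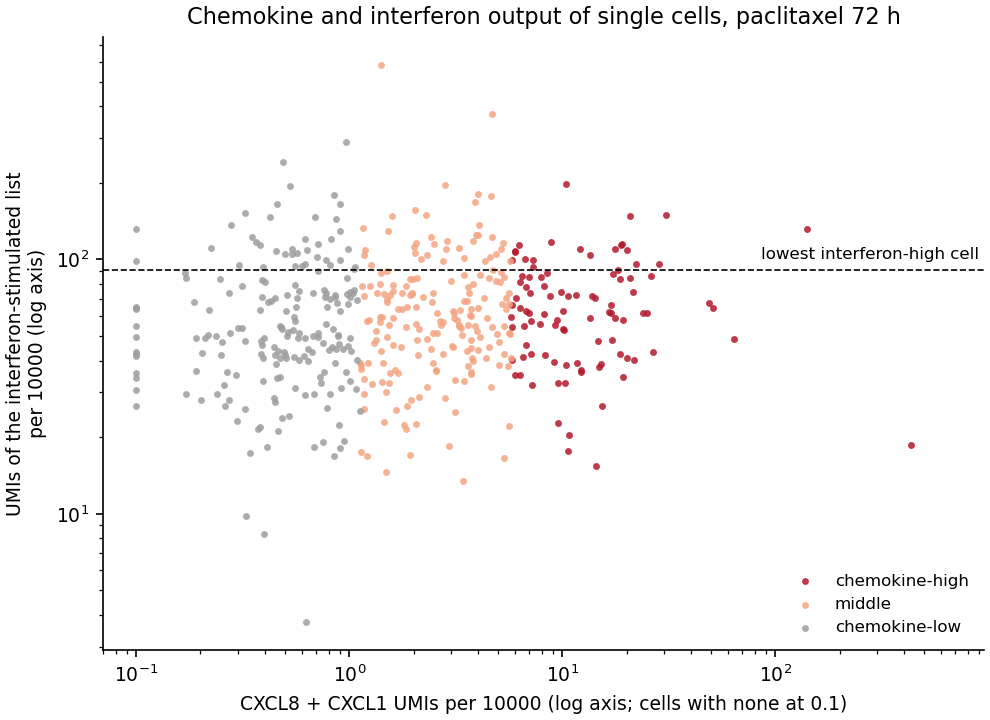
Chemokine share (x axis) and interferon share (y axis) per 10000 UMIs, both on log axes, of the 485 cells of the paclitaxel 72 h library. Each point is 1 cell and the dashed line is the lowest interferon-high cell at 90.9; 21 of 97 chemokine-high and 39 of 194 chemokine-low cells lie on or above it.

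The most abundant interferon genes were close in both sets. ISG15, a ubiquitin-like protein, was at 1953 CPM in chemokine-high and 1773 CPM in chemokine-low cells (log2 ratio 0.14), and IFI6 at 796 and 725 CPM (0.13). Of 39 measured interferon-stimulated genes 8 were past 1.5-fold upwards, against 3.52% of all genes, and 0 downwards, with a median of 0.16. The 8 were IFIT2, IFIT5, OAS2, ISG20, HERC5, HERC6, PLSCR1 and CMPK2, all of low to moderate level, for example OAS2 at 17.6 and 8.50 CPM (1.05). IFIT2, an antiviral RNA-binding protein gene, was at 46.7 and 16.2 CPM, but 1 cell held 43.5% of its chemokine-high UMIs. Of 12 genes of MHC class I presentation 0 were higher or lower, and B2M was at 1109 and 1117 CPM. Over the bins ISG15 was at 1500.5, 2008, 2119, 1943 and 1953 CPM, lowest in the first bin and between 1943 and 2119 CPM above it.

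The chemokine-high cells were also divided by interferon status. In the 76 chemokine-high cells that were not interferon-high, 232 of 5982 genes (3.88%) were at least 1.5-fold higher than in chemokine-low cells. AREG was at 192 CPM in these 76 cells and at 89.5 CPM in the 21 cells high in both. It was at 36.9 CPM in the 76 cells high in interferon only, and at 25.9 CPM in chemokine-low cells. The 1 cell described above as holding a large part of the AREG UMIs is among the 76 chemokine-high cells that were not interferon-high. Its part in this difference was not tested. The cells high in interferon only were 37 middle and 39 chemokine-low cells. These 39 are therefore also among the 194 chemokine-low cells they are set beside. CXCL3 was at 39.5, 18.3, 4.19 and 3.77 CPM in the same order, and CXCL5 at 39.7, 19.4, 7.73 and 5.34 CPM. PLAU was nearly equal in both kinds of chemokine-high cell (86.0 and 88.5 CPM) and at 52.3 CPM in cells high in interferon only. TNFAIP3 was at 34.5, 33.5, 29.4 and 13.6 CPM, so it was higher in all 3 sets than in chemokine-low cells. Between all 97 interferon-high and the 194 interferon-low cells 5.5% of 5983 genes were at least 1.5-fold higher. IFIT2, a gene of the list that cut the sets, was at 10.9, 171, 177 and 16.2 CPM. The median log2 ratio of the interferon list against chemokine-low cells was -0.01 in chemokine-high cells that were not interferon-high, and 0.73 in cells high in both. These sets were cut from the list whose genes they are described by, so the interferon values are no finding.

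Of 50 measured G2/M genes 8 were higher, against 3.52% of all genes, and 0 lower (median 0.30). Among the 8 was CDK1, the mitotic kinase, at 150 CPM in chemokine-high and 73.0 CPM in chemokine-low cells (1.04). Of 38 S phase genes 0 were higher or lower (median -0.04). TOP2A was at 96.5 and 68.0 CPM (0.51) and MKI67 at 57.2 and 43.0 CPM (0.41). The G2/M median was 0.47 in chemokine-high cells that were not interferon-high and -0.52 in the 21 cells high in both, while the S phase medians were -0.10 and 0.08. Between all 97 interferon-high and the 194 interferon-low cells the G2/M median was -0.50 and the S phase median -0.37. A negative G2/M median was thus not particular to cells high in both. In cells under 100000 UMIs CDK1 had a log2 ratio of -0.049. After thinning to 20000 UMIs, 44 of 97 chemokine-high cells (45.4%) and 113 of 194 chemokine-low cells (58.2%) had no UMI of MKI67 and TOP2A.

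The other 3 libraries were not used to choose these cells, so the same ranking within each of them shows which genes recur. The top 20% held 150 cells with paclitaxel at 24 h, 154 with DMSO at 72 h and 216 with DMSO at 24 h, each set against its own lowest 40%. In DMSO at 72 h 238 of the 308 chemokine-low cells had no UMI of CXCL8 or CXCL1. CXCL8 was at 267 CPM in chemokine-high and 4.89 CPM in chemokine-low cells with paclitaxel at 24 h, at 60.0 and 0.676 CPM with DMSO at 72 h, and at 112 and 2.39 CPM with DMSO at 24 h. At a mean of at least 20 CPM 175 of 5514 genes (3.17%), 134 of 5241 (2.56%) and 133 of 5736 (2.32%) were at least 1.5-fold higher in the same order of libraries, and 1.05%, 0.935% and 0.227% at least 1.5-fold lower.

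Genes of the paclitaxel 72 h ranking recurred. Of the 202 genes higher there, 155 could be measured with paclitaxel at 24 h and 66 of these (42.6%) were at least 1.5-fold higher there too, against 169 of all 5301 genes measured in both libraries (3.19%). With DMSO at 72 h it was 67 of 151 genes (44.4%, against 2.45% of all genes measured in both), and with DMSO at 24 h 67 of 140 (47.9%, against 2.48%). These genes made up 39.1%, 54.5% and 51.1% of the genes higher in those libraries among the genes measured in both. In all 4 libraries 39 genes were higher (19.3% of the 202). Of the 75 lower genes, 14 of 51 (27.5%), 12 of 45 (26.7%) and 5 of 49 (10.2%) were lower in paclitaxel 24 h, DMSO 72 h and DMSO 24 h cells. Of all genes measured in both libraries, 1.00%, 0.80% and 0.21% were lower there. Lower in all 4 were 3 genes (4% of the 75): LINC01297.1, C5orf38 and the carboxypeptidase M gene (symbol CPM). No share over all genes was computed for the counts in all 4 libraries. Cells of the top 20% had more UMIs in each library (medians 80544.5 against 52905, 62227 against 53087.5 and 68821 against 55860.5), and the part of this in the shared genes was not tested.

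**Figure D5:**
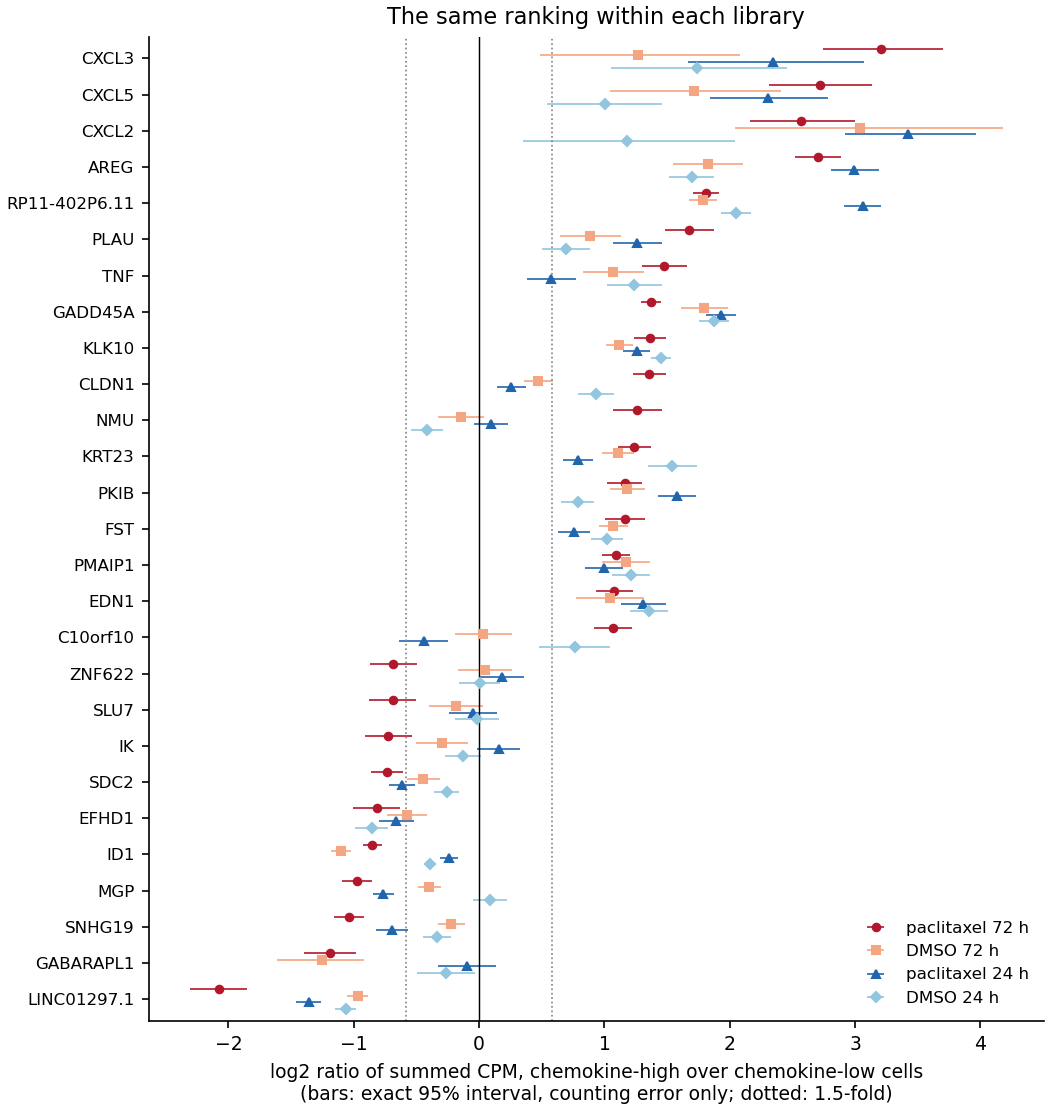
Log2 ratio of summed CPM (x axis), chemokine-high over chemokine-low cells, within each of the 4 libraries (colours), for CXCL3, CXCL5 and CXCL2 and the 14 highest and 10 lowest ratios after 72 h of paclitaxel. Bars are exact 95% intervals for counting error only and dotted lines mark 1.5-fold; of the 14 highest genes 10 are past 1.5-fold in all 4 libraries, whereas NMU lies at 0.09, -0.14 and -0.41 in the other 3.

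Among the 14 highest genes, 12 had the same direction in the other 3 libraries and 10 were past 1.5-fold in each. Singly, 10, 11 and 13 of the 14 were past 1.5-fold with paclitaxel at 24 h, DMSO at 72 h and DMSO at 24 h. Of all genes averaging 20 CPM or more, 3.17%, 2.56% and 2.32% were higher there. AREG had log2 ratios of 2.99 with paclitaxel at 24 h, 1.82 with DMSO at 72 h and 1.70 with DMSO at 24 h. GADD45A had 1.93, 1.797 and 1.87, and KLK10 1.26, 1.12 and 1.45. RP11-402P6.11 had 3.06, 1.78 and 2.05. PLAU had 1.26, 0.89 and 0.69, all under its 1.68 after 72 h of paclitaxel. TNF had 0.57, 1.07 and 1.24, and CLDN1 had 0.26, 0.47 and 0.93, also under its 1.36. NMU and C10orf10, the genes that rested on 1 cell, changed sign in at least 1 library.

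The 39 genes higher in all 4 libraries were chosen after their values were seen. Besides AREG and TGFA for the EGF receptor and PLAU and PLAUR for plasminogen activation, they include surface and junction genes of epithelia: CLDN4, the desmosomal cadherin gene DSG3 at 114 CPM in chemokine-high and 56.6 CPM in chemokine-low cells after 72 h of paclitaxel, and EMP1 (324 and 178 CPM). CDC42EP1, an effector of the GTPase CDC42, had log2 ratios of 1.03, 1.21, 0.99 and 1.44 in paclitaxel 72 h, paclitaxel 24 h, DMSO 72 h and DMSO 24 h cells. Lipid genes GPAT3 and MGLL, the calcineurin regulator gene RCAN1 and the keratin gene KRT81 were also among them. CCND1 (cyclin D1), the most abundant, was at 2161 and 1430 CPM (0.60), and past 1.5-fold in 6 of 13 alternatives. FOSL1, CFLAR, TNFRSF21, CXCL16 and PMAIP1 were the genes of the AP-1, apoptosis, receptor and other chemokine lists in the set.

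List medians also differed between libraries. Over all genes averaging 10 CPM or more, 3.25%, 2.72% and 2.34% were higher and 1.47%, 1.29% and 0.419% lower with paclitaxel at 24 h, DMSO at 72 h and DMSO at 24 h. The NF-kB list had medians of 0.27, 0.27, 0.20 and 0.27 in paclitaxel 72 h, paclitaxel 24 h, DMSO 72 h and DMSO 24 h cells, with 5 of 18, 1 of 17, 1 of 14 and 4 of 15 genes higher. TNFAIP3 was higher in all of them (1.34, 2.10, 0.89 and 2.13), whereas NFKBIZ had 0.41, 0.35 and 0.62 outside the paclitaxel 72 h library. The plasminogen activator list had 0.59, 0.22, 0.15 and 0.47. The interferon list had 0.16, -0.23, 0.10 and 0.08. The G2/M list, with 8 genes higher after 72 h of paclitaxel, had 0 higher and 0 lower in each other library (medians 0.18, 0.15 and -0.11).

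The overlap with interferon-high cells was not the same in each library. With paclitaxel at 24 h, 22 of 150 chemokine-high cells were interferon-high (14.7%, 9.43 to 21.4), against 67 of 300 chemokine-low cells (22.3%, 17.7 to 27.5). With DMSO at 72 h it was 39 of 154 (25.3%) against 60 of 308 (19.5%), and with DMSO at 24 h 64 of 216 (29.6%, 23.6 to 36.2) against 67 of 432 (15.5%, 12.2 to 19.3). IFI6 had log2 ratios of -0.88, 0.06 and 0.31 in the same order of libraries. It belongs to the list that cut the interferon-high cells, so these values are no separate finding. The DMSO 24 h intervals did not overlap, though they cover counting error in 1 library only. Spearman correlations of chemokine and interferon share were -0.092 over 751 cells, 0.059 over 769 cells and 0.127 over 1081 cells.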

How the data were processed

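The values deposited by the authors are raw UMI counts per gene symbol and cell barcode, 1 count table per library. The submitters' processing notes name Cell Ranger 2.0 and GRCh38; barcode selection was not given in the sources used here. Cells with at least 20000 UMIs were ranked by CXCL8 and CXCL1 UMIs over total UMIs. UMIs were summed over the top 20% and the lowest 40% of cells and scaled to CPM, and log2 ratios carry an exact 95% interval for counting error. Summed counts under 3 UMIs were raised to 3 before a ratio was taken. Genes were called at 1.5-fold with a mean of 20 CPM, or 10 CPM within the 31 gene lists. With 1 library per group and cells that are not replicates, no test was run. Free RNA was not measured, since no cell type lacking these genes was present.

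Named genes are the 14 highest and 10 lowest ratios at a mean of 50 CPM, leaving out MT-, RPL and RPS genes, up to 4 per list and a set of chemokine, NF-kB, interferon and cell cycle genes; others were chosen after their values were seen. The members and lists were chosen with earlier results of these data known. The calculation was tested on simulated data. Loci are from GENCODE release 29 and promoters from RefSeq, GRCh38.p14 (114 of 168 named genes matched). Python 3.11.15, numpy 2.4.6, pandas 2.3.3, scipy 1.17.1 and scanpy 1.11.5 (Scrublet) were used. A few named genes are not reported here.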

Additional observations from a re-analysis of the deposited data

Results flagged for a closer look

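EGR1, an immediate early transcription factor gene, had a log2 ratio of -0.67 between chemokine-high and chemokine-low cells with DMSO at 72 h, against 1.15 with paclitaxel at 72 h. TUBA4A, an alpha-tubulin gene, had 0.69 with paclitaxel at 24 h, against -0.68 with paclitaxel at 72 h. Both were picked out because the direction differed between libraries, and the difference was not tested.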

How the results depend on the processing

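No paired analysis was possible because each group is 1 library and no test was run. The counts of genes at least 1.5-fold higher and lower in chemokine-high cells were 202 and 75 as reported. They were 123 and 37 when cells were ranked by CXCL8 alone, and 327 and 201 when thinned to 20000 UMIs. Without cells of 100000 or more UMIs they were 314 and 164. In the 252 cells without MKI67 and TOP2A UMIs after thinning, taken with their full counts, they were 328 and 297. At a mean of 50 CPM they were 104 and 20, and at a mean of 5 CPM 418 and 374. The higher count was 358 for the top 10% against the lowest 50%. The lower count was 120 from the mean of per-cell CPM and 157 without ribosomal protein and mitochondrial genes. Higher genes made up 72.9% of these calls as reported and between 52.5% and 83.9% over the alternatives. In cells with 40000 to 80000 UMIs, added after seeing the data, the counts were 501 and 265, and the NF-kB and interferon list medians 0.50 and 0.34. Interferon-high cells were cut at the same top percentage as chemokine-high cells. The share of chemokine-high cells that were interferon-high was 10.4% when both were the top 10% (5 of 48 cells). With both at the top 20% it was 18.6 to 23.7%.

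Of 104 named genes past 1.5-fold, 44 stayed past it in all 13 alternatives. Both counts include CXCL8 and CXCL1, which set the ranking, so their place in them is no finding. Log2 ratios changed sign in these cases. Ranked by CXCL8 alone, they were -0.063 for C10orf10, 0.026 for IL23A, -0.029 for KRT14, -0.041 for CDC20 and 2.41 for CCL20; ranked by CXCL1 alone, -0.65 for IFIT2. Thinned, GADD45B had -0.20 and HMOX1 0.53, and by the mean of per-cell CPM HMOX1 had 0.20. Without cells of 100000 or more UMIs, NMU had -0.0081, GADD45B -0.32, CDK1 -0.049, CDCA3 -0.24 and CDC20 -0.12. In the top 10%, CCL5 had -2.84. In cells without MKI67 and TOP2A UMIs after thinning, NMU had -0.15, FOSL1 -0.16, GADD45B -0.29, AKR1C3 0.18 and CDK1 -0.25. In cells with 40000 to 80000 UMIs, MGP had 0.36, CDCA3 -0.67 and CCL20 3.09. Without the highest cell of each set, added after seeing the data, ADM had -0.17 and CCL20 1.62. The cause was not tested.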
